A study of Oryza sativa with 8 samples.

Results

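Leaves of the rice cultivar ZH11 were sampled 24 h after seedlings had been moved to medium without phosphate (the ZH11_NP library) and set against leaves of control seedlings (ZH11_CK). A gene entered the comparison where its deposited expression value, read as FPKM (fragments per kilobase of gene and depth), was at least 5 in either library. This held for 15002 of the 38977 genes in the ZH11 table. For each gene the ratio was log2 of (ZH11_NP + 1) over (ZH11_CK + 1), and a gene is called at least 2-fold higher or lower where that value reached 1 or -1.

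The series sequenced leaf RNA in 8 libraries, 1 for each group. ZH11_NP and ZH11_CK are both wild type and carry no mutation named in the labels. Their seedlings were 2 weeks old and had grown on solid MS medium at 0.5 strength in glass tubes; a time after transfer is labelled for ZH11_NP only, so the hour at which control leaves were cut is not known here. The other 6 libraries are leaves of DJ, dgp1 and glk1glk2 with low phosphate (LP, 10 µM KH2PO4, 6 days) or as controls (CK), and they are in a separately normalized table.

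Plants take up phosphorus as inorganic phosphate and hold much of it in the vacuole. In rice, PHR2 and related MYB factors switch on phosphate starvation genes, the small SPX proteins bind and restrain PHR2 when phosphate is plentiful, the non-coding RNA IPS1 and the ubiquitin-conjugating enzyme PHO2 set the amount of transporter protein, and PHT1 transporters carry phosphate across the plasma membrane. Phosphate supply is tied to nitrate signalling, in which nitrate induces its own reductases, and to defence, since plants commonly change their pathogen response genes when phosphate is short.

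With a single library on each side, the ratios describe these libraries and have no replicate check, so no p-value is given. The reads behind each value could be recovered, 16059486 in ZH11_NP and 15612820 in ZH11_CK over all genes, with reads for 26844 and 26486 genes. Intervals given with a fold are 95% exact conditional binomial intervals over those reads, and they cover counting error only. The labelled tissue was checked against markers. All 4 mesophyll markers with a symbol in the table were abundant, with CAB1R, a light-harvesting chlorophyll-binding protein, at 9628 FPKM in ZH11_NP and 11421 FPKM in ZH11_CK. Of 5 root markers RCc3 and LSI2 had no read in either library and LSI1 stood at 14.2 and 15.9 FPKM. None of the 7 markers of shoot apex and stem base reached the minimum, and OSH1, OSH15 and WOX4 had no read.

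Most genes stood at nearly the same level in both libraries. Of the 15002 genes, 242 were at least 2-fold higher in ZH11_NP (1.61%) and 479 at least 2-fold lower (3.19%), together 4.81%. The median log2 ratio was -0.03, and 90% of the ratios lay between -0.81 and 0.61. Changes of 4-fold or more were rarer and mostly downward, with 28 genes higher and 104 lower. The minimum level itself shapes these counts, because 132 of the 242 higher genes passed it through ZH11_NP alone and 265 of the 479 lower genes through ZH11_CK alone. At the edge of the rule, Os01g0902000 was kept with 5.00007 FPKM in ZH11_NP and 3.78 FPKM in ZH11_CK, and Os09g0387000 was left out with 3.12 FPKM in ZH11_NP and 4.99955 FPKM in ZH11_CK.

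**Figure D1:**
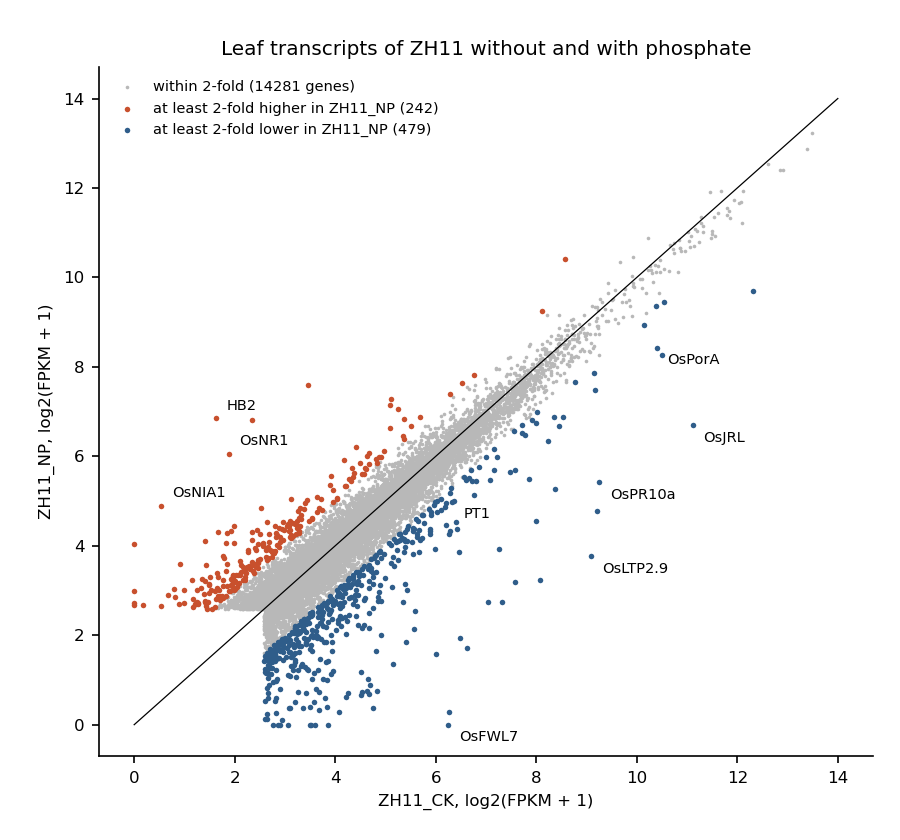
FPKM of each of the 15002 tested genes in ZH11_NP (vertical axis) against ZH11_CK (horizontal axis), on log2(FPKM + 1) scales, 1 library each; coloured points are the 242 genes at least 2-fold higher and the 479 at least 2-fold lower. The cloud lies along the diagonal, HB2, OsNIA1 and OsNR1 stand far above it, and OsPR10a and OsJRL far below it.

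Among the functional groups, defence lists held the most lower genes. Together they had 227 tested members of 677, with 6 higher, 68 lower and a median log2 ratio of -0.42, beside -0.03 over all genes. Of the 68 lower genes 36 passed the minimum through ZH11_CK alone, and of the 6 higher genes 2 through ZH11_NP alone. The nitrogen lists had 67 tested members of 259, with 5 higher, 3 lower and a median of -0.04. Phosphate lists had 87 tested of 192, with 3 higher, 5 lower and a median of -0.05. Abscisic acid lists had 113 tested of 247, with 5 higher, 2 lower and a median of -0.08, and transport lists 274 of 811, with 8 higher, 15 lower and a median of 0.07. The shares higher and lower were 3.45% and 5.75% in phosphate lists, 4.42% and 1.77% in abscisic acid lists and 2.92% and 5.47% in transport lists. In nitrogen lists they were 7.46% and 4.48%, and in defence lists 2.64% and 29.96%. Over all genes they were 1.61% and 3.19%, the shares to set beside the list counts that follow. In a bulk leaf sample, fewer cells of a type and less RNA per cell cannot be told apart for any of these values.

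**Figure D2:**
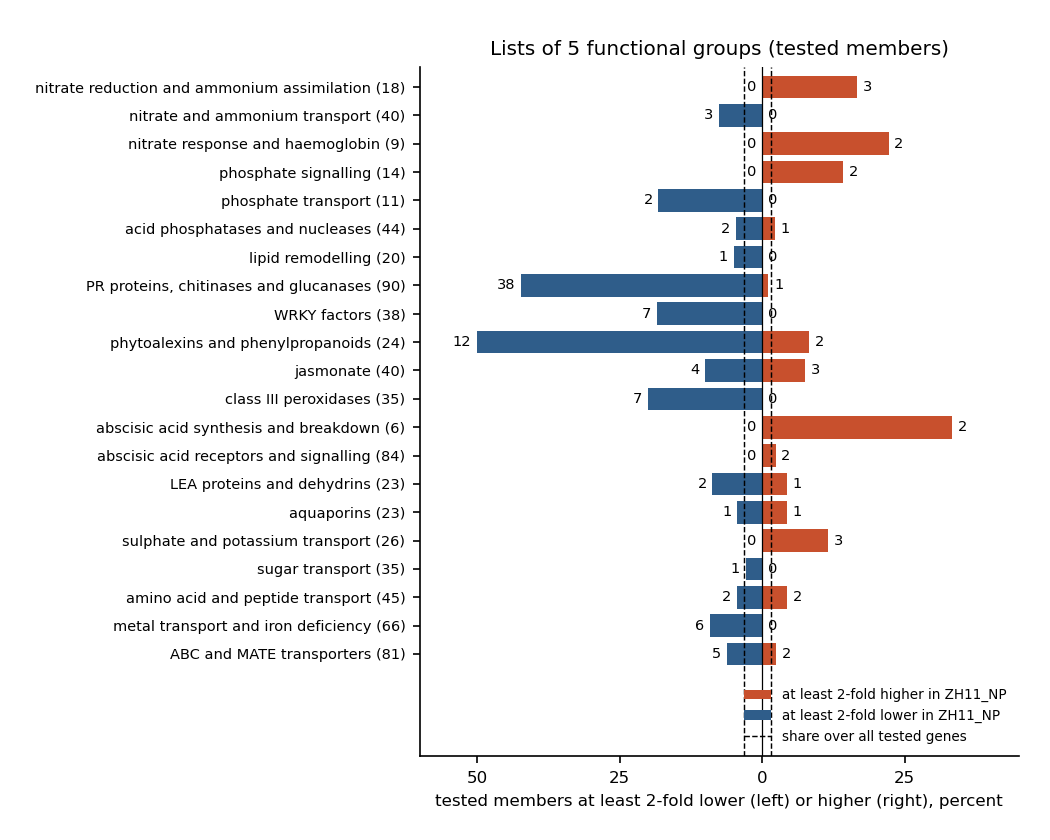
Share of the tested members (number in parentheses) of 21 gene lists that were at least 2-fold lower (bars to the left) or higher (bars to the right) in ZH11_NP than in ZH11_CK, in percent, with the number of genes at each bar; dashed lines are the shares over all 15002 tested genes. The lists of PR proteins, chitinases and glucanases (38 of 90 lower) and of phytoalexins and phenylpropanoids (12 of 24 lower) reach furthest to the left.

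The nitrogen group split into a few genes with very high ratios and a majority near 0. Nitrate reductase, the enzyme that turns nitrate into nitrite and the first step of nitrate assimilation, stood far higher without phosphate. OsNIA1 (Os02g0770800, chromosome 2, 32513749 to 32517155, minus strand) had 28.8 FPKM in ZH11_NP and 0.455 FPKM in ZH11_CK, 63.3-fold higher (interval 41.7 to 101). OsNR1 (Os08g0468100) had 65.6 FPKM in ZH11_NP and 2.71 FPKM in ZH11_CK, 24.2-fold higher (20.5 to 28.9). The third reductase gene did not share the difference: OsNIA2 (Os08g0468700), which lies near OsNR1 on chromosome 8, had 2.46 FPKM in ZH11_NP and 3.09 FPKM in ZH11_CK. OsNR1 shares part of its span with another annotated gene, Os08g0468200, and how the counting treated related or overlapping genes is not stated. Coordinates throughout are those of the deposited table, whose genome build is not given in the sources used here.

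The next steps of nitrate assimilation showed smaller differences. The gene with the symbol NiR, nitrite reductase, was under the minimum with 1.24 FPKM in ZH11_NP and 2.07 FPKM in ZH11_CK. Sirohaem is the cofactor of nitrite reductase, and the gene described as a sirohaem uroporphyrinogen methyltransferase (Os01g0631200) had 21.3 FPKM in ZH11_NP and 8.19 FPKM in ZH11_CK, 2.60-fold higher (2.19 to 3.10). These 3 genes were all the higher members among 18 tested for nitrate reduction and ammonium assimilation, and none was lower. OsNIA1 and OsNR1 passed the minimum through ZH11_NP alone. The abundant enzymes that build ammonium into amino acids stayed within 2-fold. OsGLN2, the chloroplast glutamine synthetase, had 423 FPKM in ZH11_NP and 451 FPKM in ZH11_CK. OsGLU, a glutamate synthase, had 251 FPKM in ZH11_NP and 146 FPKM in ZH11_CK, and the asparagine synthetase gene ASN1 had 562 FPKM in ZH11_NP and 959 FPKM in ZH11_CK.

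Plant haemoglobins bind oxygen and scavenge nitric oxide, a by-product of nitrite. HB2 (Os03g0226200, chromosome 3, 6624980 to 6626080, minus strand), a non-symbiotic haemoglobin, had 115 FPKM in ZH11_NP and 2.11 FPKM in ZH11_CK, from 1525 and 26 reads. Its 54.3-fold difference (36.9 to 83.4) gave the highest log2 ratio of all genes with at least 10 FPKM, 5.22. Another haemoglobin-like gene, Os06g0591600, had 27.5 FPKM in ZH11_NP and 43.4 FPKM in ZH11_CK, so the family had no shared direction. OsLBD38, a LOB-domain factor whose Arabidopsis namesakes repress nitrogen-responsive genes, had 59.2 FPKM in ZH11_NP and 17.1 FPKM in ZH11_CK, 3.46-fold higher (3.04 to 3.94). HB2 and OsLBD38 were the 2 higher members among 9 tested of the nitrate response list, and none was lower. The pentose phosphate genes of the list, which supply reductant for nitrite reduction, stayed within 2-fold, with OsG6PDH2 at 97.7 FPKM in ZH11_NP and 84.2 FPKM in ZH11_CK.

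Most nitrate and ammonium transporters stayed near their control level. Of 40 tested transporter genes for nitrate, ammonium and related peptides 3 were lower, beside 3.19% over all genes, and none was higher. The median log2 ratio was -0.08, with 17 ratios above 0 and 23 below. The 3 lower genes included the peptide transporter OsPTR3, described with the peptide carriers. OsNRT1.5A, of the family that loads nitrate into the xylem in Arabidopsis, had 7.01 FPKM in ZH11_NP and 20.2 FPKM in ZH11_CK, 2.89-fold lower (2.51 to 3.34). OsNAR2.2, a partner protein of high-affinity nitrate transporters, had 1.33 FPKM in ZH11_NP and 6.04 FPKM in ZH11_CK, 4.56-fold lower (2.7 to 8.1). The nitrate transporter and sensor NRT1.1B stayed within 2-fold at 30.6 FPKM in ZH11_NP and 16.99 FPKM in ZH11_CK.

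Type-A response regulators, early cytokinin-induced genes that damp cytokinin signalling, were, of the families examined, the only one with every tested member called higher. They were picked out of the growth lists after their values had been seen. Of 14 annotated genes, 6 reached the minimum, and 2 of these did so through ZH11_NP alone. RR10 had 32.1 FPKM in ZH11_NP and 7.67 FPKM in ZH11_CK, and RR6 had 19.5 FPKM in ZH11_NP and 4.43 FPKM in ZH11_CK. OSRR9 had 22.2 FPKM in ZH11_NP and 5.24 FPKM in ZH11_CK, and RR4 had 31.3 FPKM in ZH11_NP and 9.84 FPKM in ZH11_CK. The most abundant, OSRR2, had 97.8 FPKM in ZH11_NP and 33.2 FPKM in ZH11_CK, 2.95-fold higher (2.73 to 3.18), and OSRR1 had 10.7 FPKM in ZH11_NP and 3.84 FPKM in ZH11_CK. The folds ran from 2.79 (OSRR1) to 4.40 (RR6), a narrower range than in the nitrate reductase family. RR10 and OSRR9 are a closely similar pair on chromosomes 12 and 11, so their reads may be shared.

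**Figure D3:**
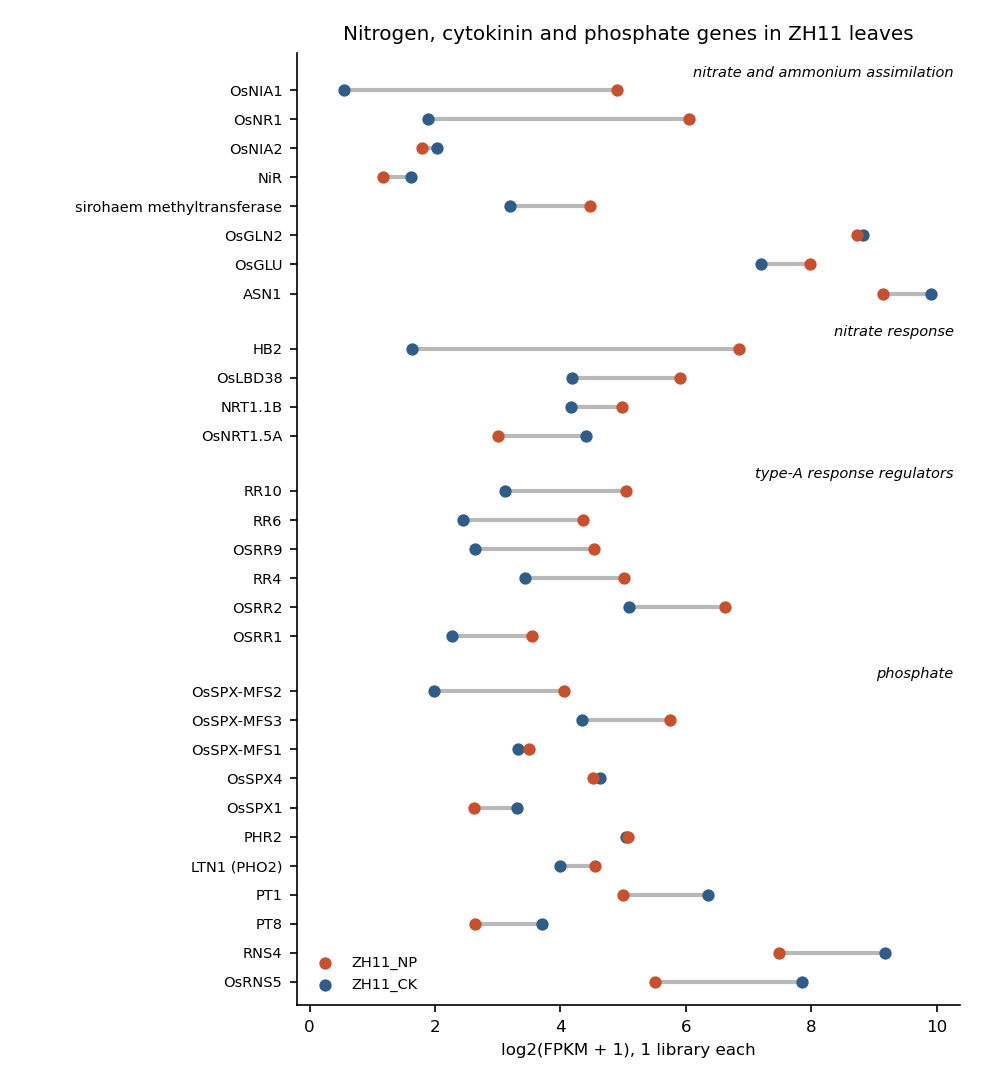
Expression of genes of nitrate assimilation, nitrate response, cytokinin response and phosphate supply in ZH11_NP (red) and ZH11_CK (blue), as log2(FPKM + 1), 1 library each, with a grey line joining the values of a gene. HB2, OsNIA1 and OsNR1 have the longest lines, all type-A response regulators lie higher in ZH11_NP, and most phosphate signalling genes have overlapping or close points.

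The phosphate genes themselves mostly stood close to their control level. The phosphate signalling list had 14 tested members of 25, of which 2 were higher (14.3%, beside 1.61% over all genes) and none lower. The median log2 ratio was 0.10. Both higher members encode SPX-MFS proteins, carriers of phosphate at the vacuolar membrane. OsSPX-MFS2 (Os02g0678200) had 15.7 FPKM in ZH11_NP and 2.95 FPKM in ZH11_CK, 5.32-fold higher (4.41 to 6.46), and it passed the minimum through ZH11_NP alone. OsSPX-MFS3 (Os06g0129400) had 52.8 FPKM in ZH11_NP and 19.2 FPKM in ZH11_CK, 2.75-fold higher (2.54 to 2.97). The third tested member, OsSPX-MFS1, had 10.3 FPKM in ZH11_NP and 9.06 FPKM in ZH11_CK, so the carriers differed among themselves.

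The central regulators stayed within 2-fold. PHR2, the main activator of the phosphate starvation response in rice, had 32.6 FPKM in ZH11_NP and 31.9 FPKM in ZH11_CK. Its relatives PHR1 and PHR3 had 30.5 and 6.14 FPKM in ZH11_NP and 24.4 and 11.4 FPKM in ZH11_CK. The SPX repressors that reached the minimum were OsSPX4 and OsSPX1, and neither was called. OsSPX4 had 21.9 FPKM in ZH11_NP and 23.8 FPKM in ZH11_CK, and OsSPX1 had 5.15 FPKM in ZH11_NP and 8.88 FPKM in ZH11_CK, 1.73-fold lower (1.37 to 2.18). OsSPX2, OsSPX3, OsSPX5 and OsSPX6 were under the minimum in both libraries. The PHO2 gene, listed as LTN1, had 22.4 FPKM in ZH11_NP and 14.8 FPKM in ZH11_CK. IPS1, a standard starvation marker, was barely detected, at 0.311 FPKM in ZH11_NP and 0.112 FPKM in ZH11_CK from 3 reads and 1 read, so no fold is given.

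Phosphate transport held 11 tested members of 44, with 2 lower (18.2%, beside 3.19% over all genes) and none higher. PT1 (Os03g0150600), a PHT1 transporter, had 31.1 FPKM in ZH11_NP and 80.9 FPKM in ZH11_CK, 2.61-fold lower (2.42 to 2.81). PT8 (Os10g0444700), a high-affinity PHT1 transporter, had 5.24 FPKM in ZH11_NP and 12.04 FPKM in ZH11_CK, 2.299-fold lower (1.97 to 2.69). Transporters of other membranes showed small differences, with the mitochondrial carrier OsPT15 at 101 FPKM in ZH11_NP and 97.9 FPKM in ZH11_CK. PHF1, which lets PHT1 proteins leave the endoplasmic reticulum, had 49.4 FPKM in ZH11_NP and 46.8 FPKM in ZH11_CK.

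Enzymes that free or spare phosphate gave a mixed picture. Acid phosphatases release phosphate from organic compounds and S-like ribonucleases from RNA. Of 44 tested members 1 was higher (2.27%, beside 1.61% over all genes) and 2 were lower (4.55%, beside 3.19%). The median log2 ratio was -0.09. Both lower genes were ribonucleases and neighbours on chromosome 9. RNS4 had 178 FPKM in ZH11_NP and 576 FPKM in ZH11_CK, 3.23-fold lower (3.11 to 3.36), and OsRNS5 had 44.4 FPKM in ZH11_NP and 230 FPKM in ZH11_CK, 5.19-fold lower (4.82 to 5.58). The higher gene, Os05g0189900, described as a vegetative storage protein or acid phosphatase, had 39.3 FPKM in ZH11_NP and 17.5 FPKM in ZH11_CK. The purple acid phosphatase OsPAP10d was not called, at 5.80 FPKM in ZH11_NP and 2.67 FPKM in ZH11_CK. Plants short of phosphate replace phospholipids with sulfolipids and galactolipids. Of 20 tested lipid remodelling genes none was higher, and the sulfolipid synthase SQD2.1 had 49.2 FPKM in ZH11_NP and 47.8 FPKM in ZH11_CK. The single lower member, the glycerophosphodiester phosphodiesterase-like Os03g0603600, had 5.003 FPKM in ZH11_NP and 13.5 FPKM in ZH11_CK.

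Pathogenesis-related (PR) proteins are secreted or cytosolic proteins, many of them antimicrobial, that accumulate after infection. Of 90 tested members of the list of PR proteins, chitinases and glucanases, 38 were lower and 1 was higher, against 3.19% lower and 1.61% higher over all genes. The median log2 ratio was -0.72, and 65 of the 90 ratios were below 0. Of the 38 lower genes, 16 passed the minimum through ZH11_CK alone. The families described next were split off after their values had been seen.

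The PR10 proteins, small ribonuclease-like proteins of the Bet v I fold, differed widely from control at high levels. OsPR10a, also known as PBZ1, had 41.7 FPKM in ZH11_NP and 611 FPKM in ZH11_CK, 14.7-fold lower (13.5 to 16.0). RSOsPR10, named for its expression in roots, had 26.5 FPKM in ZH11_NP and 591 FPKM in ZH11_CK, 22.2-fold lower (19.97 to 24.9). Of the 5 root markers, LSI1 had 14.2 FPKM in ZH11_NP and 15.9 FPKM in ZH11_CK, the others were under the minimum in both and RCc3 had no read; their part in this value was not tested. RPR10b had 8.42 FPKM in ZH11_NP and 267 FPKM in ZH11_CK, 31.8-fold lower (26.4 to 38.6). These genes lie side by side on chromosome 12 (22580880 to 22601182), where 4 of 5 tested genes among 6 were lower. The fourth was PR10, with 2.01 FPKM in ZH11_NP and 63.1 FPKM in ZH11_CK. Os12g0555400, which lies among them, had 12.9 FPKM in ZH11_NP and 22.4 FPKM in ZH11_CK and was not called. Outside this run the family differed, with the jasmonate-inducible JIOsPR10 at 50.4 FPKM in ZH11_NP and 33.9 FPKM in ZH11_CK. Os04g0465600, described as a Bet v I allergen protein, had 5.56 FPKM in ZH11_NP and 1.00 FPKM in ZH11_CK, 5.56-fold higher (2.99 to 11.3). It passed the minimum through ZH11_NP alone. Of 7 tested genes with a Bet v I description, 3 were lower and 1 higher, with a median log2 ratio of -0.89. RSOsPR10 is not among those 7.

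PR1 proteins, the classical salicylic acid markers, share a CAP domain. All 5 tested of 31 annotated CAP genes were lower, with a median log2 ratio of -1.84, and 2 of them passed the minimum through ZH11_CK alone. OsPR1 (Os07g0129300) had 49.1 FPKM in ZH11_NP and 178 FPKM in ZH11_CK, 3.63-fold lower (3.34 to 3.96), and PR1A (Os07g0129200) had 0.689 FPKM in ZH11_NP and 27.7 FPKM in ZH11_CK, 40.1-fold lower (22.2 to 81.1). Thaumatin-like PR5 proteins act on fungal membranes, and 7 of 14 tested were lower. Of these 7 genes, 3 passed the minimum through ZH11_CK alone. The most abundant thaumatin-like gene, OsPR5 (Os12g0628600), had 308 FPKM in ZH11_NP and 1454 FPKM in ZH11_CK, 4.72-fold lower (4.57 to 4.89).

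Chitinases and glucanases cut fungal cell walls. Among class I chitinases 5 of 9 tested genes were lower, among family 18 glycosyl hydrolases 6 of 11, and among family 17 glycosyl hydrolases, which hold the glucanases, 6 of 24. Of these lower genes, 3, 2 and 3 in turn passed the minimum through ZH11_CK alone. The chitinase Cht2 (Os05g0399300) had 0.597 FPKM in ZH11_NP and 24.4 FPKM in ZH11_CK, 40.8-fold lower (21.9 to 85.8), whereas the chitinase Oschib1 differed less, with 50.6 FPKM in ZH11_NP and 142 FPKM in ZH11_CK. The glucanase gene OsPR2 (Os01g0940700) had 88.7 FPKM in ZH11_NP and 219 FPKM in ZH11_CK. Barwin-type PR4 proteins bind chitin, and all 3 tested were lower, led by OsPR4c with 5.67 FPKM in ZH11_NP and 131 FPKM in ZH11_CK, 23.1-fold lower (18.3 to 29.7). Not every member stood lower: the thaumatin-like Os12g0569500 had 246 FPKM in ZH11_NP and 152 FPKM in ZH11_CK. The 1 member of the list of PR proteins, chitinases and glucanases called higher was the Bowman-Birk proteinase inhibitor Os01g0127600. It had 11.99 FPKM in ZH11_NP and 4.67 FPKM in ZH11_CK.

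**Figure D4:**
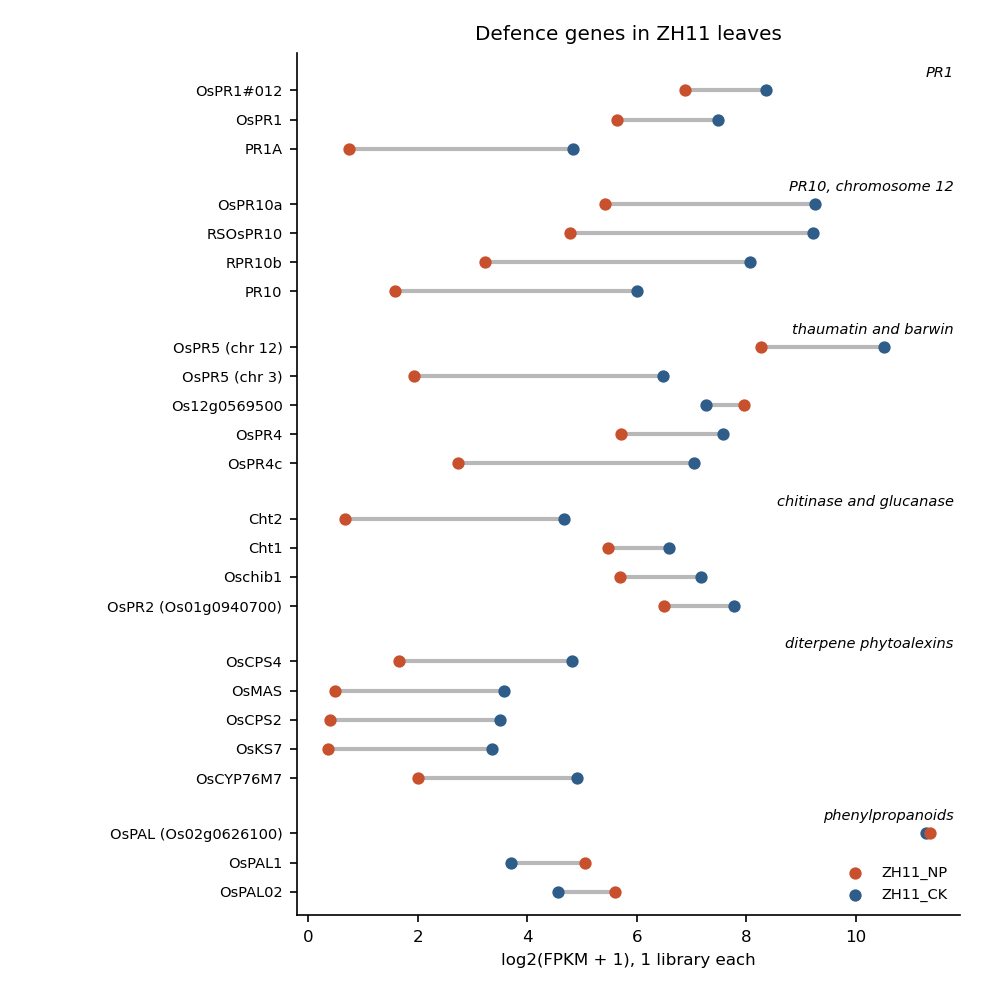
Expression of defence genes in ZH11_NP (red) and ZH11_CK (blue), as log2(FPKM + 1), 1 library each, with a grey line joining the values of a gene. PR10, PR1, PR5, chitinase and diterpenoid genes lie lower in ZH11_NP, the thaumatin-like Os12g0569500 lies higher, and the 3 phenylalanine ammonia-lyase genes plotted lie at or above their level in ZH11_CK.

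Other secreted or stress-linked proteins gave large differences at high levels. OsJRL (Os01g0348900), a jacalin-like sugar-binding lectin, had 103 FPKM in ZH11_NP and 2210.1 FPKM in ZH11_CK, 21.6-fold lower (20.3 to 22.9). OsLTP2.9, a lipid transfer protein, had 12.6 FPKM in ZH11_NP and 546 FPKM in ZH11_CK, 43.2-fold lower (35.6 to 52.9). OsRMC, a secreted receptor-like protein with cysteine-rich domains, was the most abundant of all called genes, with 824 FPKM in ZH11_NP and 5066 FPKM in ZH11_CK, 6.15-fold lower. A pair of genes described as blight-associated protein p12, Os09g0472700 and Os09g0472900, had 2.27 and 5.68 FPKM in ZH11_NP and 97.6 and 159 FPKM in ZH11_CK. The genes described here were among the 15 lowest ratios or the most abundant called genes.

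Phytoalexins are antimicrobial compounds made on infection, in rice mostly diterpenoids, and their genes lie in clusters on chromosomes 2 and 4. Of 24 tested phytoalexin and phenylpropanoid genes 12 were lower and 2 higher, and the median log2 ratio was -1.27. All 12 lower genes passed the minimum through ZH11_CK alone, since their levels in ZH11_NP were all under 5 FPKM. In the momilactone cluster of chromosome 4 (5318060 to 5486703), 4 of 7 genes were tested and all 4 were lower. OsCPS4, the cyclase that opens the pathway, had 2.15 FPKM in ZH11_NP and 27.0 FPKM in ZH11_CK, 12.6-fold lower (10.4 to 15.3), and OsMAS, the momilactone A synthase, had 0.416 FPKM in ZH11_NP and 11.0 FPKM in ZH11_CK, 26.4-fold lower (13.7 to 58.5). In the phytocassane cluster of chromosome 2 (21627356 to 21906238), 5 of 15 genes were tested and all 5 were lower. OsCPS2, its cyclase, had 0.323 FPKM in ZH11_NP and 10.4 FPKM in ZH11_CK, 32.0-fold lower (19.2 to 57.7), and the cytochrome P450 gene OsCYP76M7 had 3.04 FPKM in ZH11_NP and 29.2 FPKM in ZH11_CK. All tested genes of both clusters passed the minimum through ZH11_CK alone, so none could have been called higher. Both regions were chosen after values were seen. Under the minimum on chromosome 2, Os02g0570300 had 2.16 FPKM in ZH11_NP and 2.08 FPKM in ZH11_CK. OsTPS5 there had no read in ZH11_NP and 4.33 FPKM in ZH11_CK. Over all terpene synthases 7 of 12 tested were lower and 1 higher. Over all cytochrome P450 genes 15 of 83 were lower, 3 higher and the median was -0.00. Of the lower genes, 6 of the 7 terpene synthases and 13 of the 15 P450 genes passed the minimum through ZH11_CK alone.

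Phenylalanine ammonia-lyase genes, on the same list, gave the 2 higher calls. The enzyme opens the pathway to lignin, flavonoids and salicylic acid, and 2 of its 6 tested genes were higher while none was lower, with a median log2 ratio of 0.41. The most abundant, Os02g0626100, had 2612 FPKM in ZH11_NP and 2479 FPKM in ZH11_CK. Os02g0627100 had 32.2 FPKM in ZH11_NP and 12.1 FPKM in ZH11_CK, 2.66-fold higher (2.39 to 2.97), and Os04g0518100 had 47.5 FPKM in ZH11_NP and 22.7 FPKM in ZH11_CK, 2.09-fold higher (1.93 to 2.27). OsPAL04 was the 1 tested member with a ratio below 0, at 7.12 FPKM in ZH11_NP and 10.9 FPKM in ZH11_CK. A later lignin gene outside the list, the coniferaldehyde 5-hydroxylase CYP84A5, was 3.77-fold lower (3.24 to 4.41), with 6.11 FPKM in ZH11_NP and 23.0 FPKM in ZH11_CK.

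WRKY factors, regulators of defence, had a median log2 ratio closer to 0 than the lists of PR proteins and of phytoalexins. Family 17 glycosyl hydrolases had a median of -0.21, which was closer still. WRKY factors control many defence genes, and 7 of 38 tested were lower while none was higher (median log2 ratio -0.29). Of these 7 WRKY genes, 4 passed the minimum through ZH11_CK alone. WRKY45, which acts in the salicylic acid pathway of rice, had 6.37 FPKM in ZH11_NP and 16.4 FPKM in ZH11_CK, 2.58-fold lower (2.17 to 3.08), and WRKY28 had 1.57 FPKM in ZH11_NP and 9.07 FPKM in ZH11_CK, 5.77-fold lower (4.06 to 8.39). The abundant WRKY53 stayed close, at 87.0 FPKM in ZH11_NP and 101 FPKM in ZH11_CK. Class III peroxidases build and harden the cell wall, and 7 of 35 tested were lower and none higher (median log2 ratio -0.34). Of these 7 peroxidase genes, 2 passed the minimum through ZH11_CK alone. The most abundant of the lower ones, prx62, had 201 FPKM in ZH11_NP and 433 FPKM in ZH11_CK, 2.16-fold lower (2.08 to 2.23).

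Jasmonate genes were mixed, with 3 of 40 tested higher, 4 lower and a median log2 ratio of -0.04. Lipoxygenases start jasmonate synthesis and split in direction: OsLOX11 had 60.3 FPKM in ZH11_NP and 26.9 FPKM in ZH11_CK, 2.24-fold higher (2.11 to 2.39), and OsLOX8 had 4.54 FPKM in ZH11_NP and 13.6 FPKM in ZH11_CK, 2.99-fold lower (2.59 to 3.47). The single-copy step, allene oxide cyclase (AOC), had 107 FPKM in ZH11_NP and 99.7 FPKM in ZH11_CK. OsJAZ6, a jasmonate repressor, had 124 FPKM in ZH11_NP and 172 FPKM in ZH11_CK. The lowest ratio on the list belonged to Os10g0361000, a gene described by its lipoxygenase-like LH2 domain, with 8.12 FPKM in ZH11_NP and 191 FPKM in ZH11_CK.

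Abscisic acid is the hormone of water deficit; NCED enzymes make its precursor, PYL receptors and PP2C phosphatases sense it, and dehydrins are among its targets. Synthesis and breakdown held 6 tested genes of 23, of which 2 were higher. Os02g0704000, listed as OsNCED1 and described as a carotenoid oxygenase family protein, had 19.4 FPKM in ZH11_NP and 6.93 FPKM in ZH11_CK. It was 2.80-fold higher (2.41 to 3.27). A different gene, Os03g0645900, carries the same symbol, so the symbol alone does not settle which enzyme Os02g0704000 encodes. The other called gene, Os04g0448950, overlaps the zeaxanthin epoxidase gene OsABA1, which itself had 84.2 FPKM in ZH11_NP and 71.5 FPKM in ZH11_CK, so its reads cannot be told from those of its neighbour. The NCED genes Os03g0645900 and Os07g0154100 and the breakdown gene OsABA8OX1 were under the minimum in both libraries.

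The perception genes stood near their control level as a group. Of 84 tested receptors, kinases and phosphatases 2 were higher (2.38%, beside 1.61% over all genes) and none lower. The median log2 ratio was -0.04. None of the 4 tested PYL receptors was called, and the most abundant, OsPYL/RCAR3, had 121 FPKM in ZH11_NP and 123 FPKM in ZH11_CK. PP2C1, a phosphatase gene, had 6.98 FPKM in ZH11_NP and 2.69 FPKM in ZH11_CK, 2.59-fold higher (1.92 to 3.54). Both higher genes passed the minimum through ZH11_NP alone.

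Dehydrins and other LEA proteins, which protect drying cells, mostly had ratios below 0. Of 23 tested members 1 was higher and 2 were lower, with a median log2 ratio of -0.41 and 21 of 23 ratios below 0. Both members above 0 were dehydrins. Rab16A (Os11g0454300), a textbook target of abscisic acid, had 11.1 FPKM in ZH11_NP and 0.892 FPKM in ZH11_CK, 12.4-fold higher (6.54 to 26.5), and LIP9 had 44.03 FPKM in ZH11_NP and 24.3 FPKM in ZH11_CK. The abundant OsLEA24 had 307 FPKM in ZH11_NP and 368 FPKM in ZH11_CK.

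**Figure D5:**
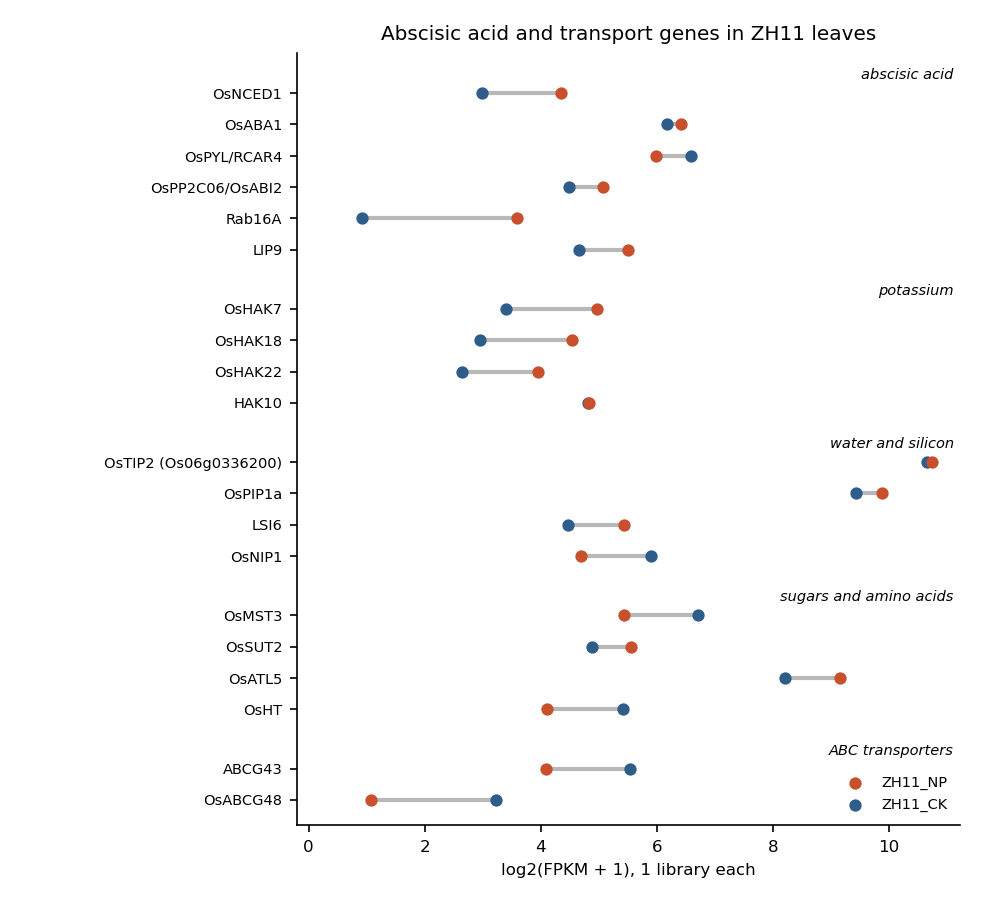
Expression of abscisic acid and transport genes in ZH11_NP (red) and ZH11_CK (blue), as log2(FPKM + 1), 1 library each, with a grey line joining the values of a gene. Rab16A, OsNCED1 (Os02g0704000) and the potassium transporters OsHAK7, OsHAK18 and OsHAK22 lie higher in ZH11_NP, and OsABCG48, OsNIP1 and OsMST3 lower.

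Among transporters of other nutrients, some potassium carriers were higher. HAK proteins carry potassium into cells or out of the vacuole. Of 16 tested 3 were higher and none lower, beside 1.61% higher and 3.19% lower over all genes. The HAK ratios were above 0 for 11 genes and below 0 for 5. This family was split off after its values had been seen, and the sulphate and potassium list had 3 higher of 26 tested. OsHAK18 had 22.27 FPKM in ZH11_NP and 6.75 FPKM in ZH11_CK, 3.30-fold higher (2.91 to 3.76), and OsHAK7 had 30.2 FPKM in ZH11_NP and 9.60 FPKM in ZH11_CK, 3.14-fold higher (2.73 to 3.63). OsHAK22 had 14.5 FPKM in ZH11_NP and 5.25 FPKM in ZH11_CK, 2.75-fold higher (2.39 to 3.18). The other HAK genes were closer to their control level, as HAK10 with 27.5 FPKM in ZH11_NP and 27.0 FPKM in ZH11_CK. All 3 higher genes share part of their span with another annotated gene.

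Aquaporins, the channels for water and small solutes, kept high levels. Of 23 tested 1 was lower (4.35%, beside 3.19% over all genes). OsNIP1 had 24.8 FPKM in ZH11_NP and 58.9 FPKM in ZH11_CK, 2.38-fold lower (2.15 to 2.63). The 1 higher feature, Os02g0666250, lies on the opposite strand within OsPIP1a, which had 935 FPKM in ZH11_NP and 685 FPKM in ZH11_CK. LSI6, which unloads silicon from the xylem in rice leaves, stood just under the call with 42.4 FPKM in ZH11_NP and 21.2 FPKM in ZH11_CK. Sugar carriers hardly differed, with 1 of 35 tested genes lower. This was OsMST3, a monosaccharide carrier, with 42.4 FPKM in ZH11_NP and 104 FPKM in ZH11_CK, 2.45-fold lower (2.31 to 2.61); OsSUT2, a vacuolar sucrose carrier, had 45.9 FPKM in ZH11_NP and 28.4 FPKM in ZH11_CK.

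Amino acid and peptide carriers had 2 higher and 2 lower genes of 45 tested. The 2 higher genes overlap on the minus strand of chromosome 4. Os04g0201800 (6912953 to 6925360) had 15.8 FPKM in ZH11_NP and 2.56 FPKM in ZH11_CK. The permease-like Os04g0201500 (6913287 to 6914107), which lies within its span, had 9.69 FPKM in ZH11_NP and 3.38 FPKM in ZH11_CK. Their reads may be shared, so both calls may come from the same locus. The peptide transporter OsPTR3 had 7.42 FPKM in ZH11_NP and 33.8 FPKM in ZH11_CK, 4.56-fold lower (3.99 to 5.23). The most abundant carrier, OsATL5, was within 2-fold at 571 FPKM in ZH11_NP and 296 FPKM in ZH11_CK.

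Metal and ABC transporters had more lower than higher calls, as had all genes together (3.19% lower, 1.61% higher), and most of their genes were not called. In the metal list 9.09% were lower, and in the ABC and MATE list 6.17% were lower and 2.47% higher. Of 66 tested metal genes 6 were lower and none was higher; 30 ratios were above 0 and the median was -0.11 on the log2 scale. All 6 carry the same description, a heavy metal transport or detoxification protein domain, and 3 of them passed the minimum through ZH11_CK alone. Os04g0469000 had 14.1 FPKM in ZH11_NP and 62.5 FPKM in ZH11_CK, 4.42-fold lower (3.73 to 5.26). The iron store OsFER1, a ferritin, had 77.1 FPKM in ZH11_NP and 72.4 FPKM in ZH11_CK. Of 81 tested ABC and MATE genes 5 were lower and 2 higher, but 50 of the 81 ratios were above 0 and the median was 0.17. Of the 5 lower genes 4 passed the minimum through ZH11_CK alone, and the 2 higher genes did so through ZH11_NP alone. The 5 lower genes are ABCG-type carriers, several of which export defence compounds in other plants, and OsABCG48 had 1.104 FPKM in ZH11_NP and 8.32 FPKM in ZH11_CK, 7.54-fold lower (6.09 to 9.41). ABCG43 had 16.0 FPKM in ZH11_NP and 45.4 FPKM in ZH11_CK, 2.83-fold lower (2.54 to 3.16).

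Several of the highest ratios lay outside these groups. Among the 15 highest were Os09g0294000, described as a chloroplast aspartokinase and homoserine dehydrogenase, an early step toward threonine and methionine, with 140 FPKM in ZH11_NP and 33.2 FPKM in ZH11_CK, 4.23-fold higher (4.01 to 4.46). OsPEAMT2, which methylates phosphoethanolamine on the way to phosphatidylcholine, had 18.9 FPKM in ZH11_NP and 4.11 FPKM in ZH11_CK, 4.60-fold higher (3.82 to 5.59). The factor OsbHLH120 had 18.5 FPKM in ZH11_NP and 2.61 FPKM in ZH11_CK, 7.09-fold higher (5.30 to 9.66). Only 2 genes with a mean of 200 FPKM or more were called higher. They were OsAAE3, an acyl-activating enzyme, with 1363 FPKM in ZH11_NP and 378 FPKM in ZH11_CK, 3.60-fold higher (3.53 to 3.68), and the catalase gene CATC with 607 FPKM in ZH11_NP and 276 FPKM in ZH11_CK.

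The same genes had other levels in the DJ and dgp1 leaves, which differ in cultivar or genotype, phosphate supply, time and table, so the values are given side by side with no comparison. HB2 had 7.47 FPKM in DJ_LP and 0 in DJ_CK, and 3.13 FPKM in dgp1_LP and 4.13 FPKM in dgp1_CK. OsNR1 had 19.5 FPKM in DJ_LP and 49.2 FPKM in DJ_CK, and 56.4 FPKM in dgp1_LP and 17.9 FPKM in dgp1_CK. PT1 had 70.9 FPKM in DJ_LP and 24.1 FPKM in DJ_CK, and 370.1 FPKM in dgp1_LP and 17.3 FPKM in dgp1_CK. Within that table PT1 stood higher with low phosphate in both backgrounds. OsSPX-MFS2 had 9.87 FPKM in DJ_LP and 13.5 FPKM in DJ_CK, and 6.67 FPKM in dgp1_LP and 12.8 FPKM in dgp1_CK, lower with low phosphate in both. RR10 had 78.7 FPKM in DJ_LP and 5.37 FPKM in DJ_CK, and 26.8 FPKM in dgp1_LP and 14.7 FPKM in dgp1_CK, higher with low phosphate in both, as were RR4, RR6 and OSRR9. The most abundant regulator in ZH11, OSRR2, was lower with low phosphate in both, with 63.6 FPKM in DJ_LP and 106 FPKM in DJ_CK, and 41.4 FPKM in dgp1_LP and 49.3 FPKM in dgp1_CK, as was OSRR1. OsPR10a had 7.45 FPKM in DJ_LP and 0 in DJ_CK, and 6.09 FPKM in dgp1_LP and 6.42 FPKM in dgp1_CK. Fewer genes had any read in DJ_CK and dgp1_CK, 17782 and 20191, than in DJ_LP and dgp1_LP, 23988 and 25440, and whether a listed 0 there reflects this was not tested.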

How the data were processed

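Leaf RNA was sequenced by the authors, with libraries from a directional kit, per the labels' protocols. The deposited tables give 1 value per gene and library with no unit in their header; the authors' values were read as FPKM, because, multiplied by gene length and scaled by a single constant per library, 100% of them came within 0.01 of a whole number. Those whole numbers were used as reads. The aligner, counting tool, annotation and genome build are not given in the sources used here. Overlapping genes and near-identical copies are uncertain, since the handling of strand and of shared reads is not stated.

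Ratios used a pseudocount of 1 and a minimum of 5 FPKM, and a plain FPKM ratio is given as the fold, with a 95% exact conditional binomial interval. With 1 library a group no test was run. Ratios were formed within the ZH11 table only. Members, lists and the named-gene rule were chosen with earlier results of these data known. The rule takes the 15 highest and 15 lowest ratios with at least 10 FPKM, the 3 highest, 3 lowest and 5 most abundant genes of each list, and fixed regulators; families, regions, near-zero and abundant called genes, and other genes named beside these, were chosen after values were seen. Alternatives were pseudocounts of 0.1 and 5, minimums of 1 and 20 FPKM, 2 other scalings and a call that also needs the interval. Scripts were tested on simulated data. Python 3.11.15, numpy 2.4.6, pandas 2.3.3, scipy 1.17.1 and matplotlib 3.10.9 were used.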

Additional observations from a re-analysis of the deposited data

How the results depend on the processing

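No paired analysis was possible because each group has 1 library. The alternatives tried could not turn a call round, so the absence of reversed calls is no check. A pseudocount keeps the sign of a ratio, and a minimum leaves the ratio as it is. The 2 other scalings shifted the log2 ratio by only 0.03 and 0.07. Counts did follow the pseudocount and the minimum level. Higher and lower genes numbered 242 and 479; they were 101 and 222 with a pseudocount of 5, 502 and 797 with a minimum of 1 FPKM, and 80 and 188 with a minimum of 20. Lower nitrogen genes, 3, became 5 with the minimum of 1. Lower phosphate genes, 5, became 3 with the pseudocount of 5 and 3 with the minimum of 20. Higher defence genes, 6, became 3 under each of these, and lower defence genes, 68, became 36 with the minimum of 20. Higher abscisic acid genes, 5, became 2 with the pseudocount of 5 and 0 with the minimum of 20. Lower abscisic acid genes, 2, became 1 with the pseudocount of 5, 1 when scaled to each library's own reads, 8 with the minimum of 1 and 0 with the minimum of 20. Higher transport genes, 8, became 4 with the pseudocount of 5, 15 with the minimum of 1 and 3 with the minimum of 20, and lower ones, 15, became 8 with the pseudocount of 5 and 8 with the minimum of 20. Scaling to own reads gave 290 and 417, and median-of-ratios scaling 267 and 433. Replicate error is unknown, and for a 1-kb gene a value under 0.175 FPKM in ZH11_NP or 0.189 FPKM in ZH11_CK rests on fewer than 3 reads.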

Other observations

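Photosystem and light-harvesting genes had medians slightly below 0, with few calls. Of 48 tested photosystem subunits none was called and 39 had a ratio below 0, with a median log2 ratio of -0.21, beside -0.03 over all genes. Light-harvesting proteins had a median of -0.25 over 21 tested genes, and 1 of them was lower, Lhcb1.1, with 654 FPKM in ZH11_NP and 1328 FPKM in ZH11_CK. Chlorophyll synthesis had a median of 0.08, with 10 of 17 ratios above 0, 1 gene lower and none higher. That gene, OsPorA, which makes chlorophyllide in the light, had 344 FPKM in ZH11_NP and 1354 FPKM in ZH11_CK, 3.94-fold lower (3.84 to 4.03). Of 9 tested chlorophyll breakdown genes 2 were lower, with SGR, the stay-green protein, at 12.4 FPKM in ZH11_NP and 34.5 FPKM in ZH11_CK, and OsRCCR1, a red chlorophyll catabolite reductase, at 23.1 FPKM in ZH11_NP and 47.9 FPKM in ZH11_CK. GLK1 and GLK2, factors that drive chloroplast genes, had 171 and 73.6 FPKM in ZH11_NP and 149 and 63.5 FPKM in ZH11_CK. The clock list had 6 tested genes, none of them called, with 5 ratios above 0 and a median log2 ratio of 0.32. Its member CCA1, whose level follows the time of day, had 127 FPKM in ZH11_NP and 76.5 FPKM in ZH11_CK. The relation of the clock genes to the other values was not tested.

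A small set of genes had few or no reads in 1 of the libraries. Of the tested genes, 34 had 3 reads or fewer in a library, 19 of them in ZH11_NP and 15 in ZH11_CK. Some were thinly counted in both, such as the small nucleolar RNA snoZ266 with 11 reads in ZH11_NP and 3 in ZH11_CK. Its fold interval, 0.897 to 19.0, includes no difference. OsFWL7 (Os03g0830500) had no read in ZH11_NP and 75.2 FPKM in ZH11_CK, at least 353-fold lower against a floor of 3 reads per library. OsCYP51H5, a cytochrome P450 gene, had no read in ZH11_NP and 13.5 FPKM in ZH11_CK, at least 114-fold lower, and OsGABA-T, its close neighbour on chromosome 2 (679468 to 697321), had 0.219 FPKM in ZH11_NP and 75.9 FPKM in ZH11_CK, 346-fold lower (159 to 945). In the other direction, Os06g0347100, described as an acyl-CoA oxidase, had 15.4 FPKM in ZH11_NP and no read in ZH11_CK, at least 120-fold higher. Near-identical copies of ribosomal protein L44 on chromosome 7 stood opposite to each other, Os07g0523700 with 111 FPKM in ZH11_NP and 4.11 FPKM in ZH11_CK and Os07g0523500 with no read in ZH11_NP and 11.1 FPKM in ZH11_CK.

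Lower genes often had another lower gene nearby. Within 50 kb, 123 of the 479 lower genes had a lower neighbour, 25.7%, beside 12.7% of all tested genes; for higher genes the shares were 9.09% of 242 and 8.099% of all tested. On chromosome 3 (30071523 to 30127328), a run of 15 genes had 3 lower of 9 tested, beside 3.19% lower over all genes. This run was chosen after its values had been seen. Among the 3 was Os03g0734300, described as a proteinase inhibitor, with 37.3 FPKM in ZH11_NP and 329 FPKM in ZH11_CK. Small nucleolar RNAs, short and thinly counted, had 12 higher and 3 lower of 37 tested, beside 1.61% higher and 3.19% lower over all genes. Some of their calls rest on few reads. The higher snoZ118 had 12 reads in ZH11_NP and 1 in ZH11_CK, and the lower SNORD25 had 1 and 12.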
